A study of Caenorhabditis elegans with 2 samples.

Results

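Chromatin immunoprecipitation with sequencing (ChIP-seq) was used to find the genomic regions occupied by ATTF-6, a protein with an AT-hook, in the nematode Caenorhabditis elegans. The regions described here are its peaks in the outer part of gene promoters on the autosomes. A member is a peak of the joint conservative list whose summit lies more than 200 and at most 1000 bp upstream of the start of a protein-coding transcript. The summit had to lie on chromosomes I to V, outside the stretch of IV from 13.5 to 17.25 Mb, a piRNA-rich part of the genome. It had to lie more than 200 bp from every protein-coding start and more than 500 bp from the start of any tRNA, snRNA or snoRNA gene. The rule uses position and no signal value. It left 244 of the 2134 regions of the list. On the same chromosomes 258 summits lay within 200 bp of a protein-coding start (start peaks) and 444 lay in no promoter window (non-promoter peaks). A further 253 lay near short RNA genes, and 935 lay on X or inside the excluded stretch.

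The 2 samples are biological replicates 1 and 2 of 1 group. Both are whole young adults of strain RW12231, aged 64 hours, in which CRISPR placed TY1, EGFP and 3xFLAG tags into attf-6 on chromosome I. The worms were synchronised by starvation as first-stage larvae after bleaching, and an anti-GFP antibody pulled down chromatin sheared by sonication. There is no second genotype or treatment, every tissue is mixed in each sample, and the control experiment named in the labels was not analysed here. Read depth is unknown, so no value below carries an error for it. Nothing in the labels says how many worms or cultures stand behind a replicate.

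An AT-hook is a short peptide that lies in the minor groove of A+T-rich DNA, and proteins that carry AT-hooks often act in chromatin or transcription. In C. elegans the 5′ ends of many transcripts are cut off and replaced by a spliced leader. An annotated start can therefore lie downstream of the place where transcription begins, and sequence well upstream can still belong to the working promoter. A region between genes that point away from each other can serve a gene on either side.

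The 61 bases centred on the summit are shown for the 10 strongest members on chromosomes II to V whose bases touch no annotated exon of a coding or noncoding transcript other than a piRNA. The results below return to them. The bases at gpa-1 and hsp-1 touch an exon of an ncRNA and those at ift-43 an exon of a coding gene, and they are not shown. Each is written 5′ to 3′ in the direction of its gene. Capitals mark short words found on either strand. One is GCGCGC, from the first list of motifs searched. The others were picked after these sequences had been seen. They are the word GCGCGA, then GTACGGTA as in Y54B9A.1, CGCCAGCA as in C33B4.4, GAGACGCA as in fust-1 below, GCGTGTTT as in rpl-3 and CTACTGTA as in mog-4.
C33B4.4: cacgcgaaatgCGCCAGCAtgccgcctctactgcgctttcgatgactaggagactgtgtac
lep-2: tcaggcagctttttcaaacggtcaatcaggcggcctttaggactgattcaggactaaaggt
rpl-3: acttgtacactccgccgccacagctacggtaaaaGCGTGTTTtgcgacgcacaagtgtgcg
Y54B9A.1: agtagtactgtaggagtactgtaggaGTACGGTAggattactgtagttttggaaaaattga
mog-4: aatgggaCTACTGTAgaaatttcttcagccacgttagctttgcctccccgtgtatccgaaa
rpl-15: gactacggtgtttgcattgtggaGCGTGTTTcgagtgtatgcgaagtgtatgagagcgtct
hcp-3: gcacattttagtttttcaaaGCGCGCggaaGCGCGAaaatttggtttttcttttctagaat
cpg-1: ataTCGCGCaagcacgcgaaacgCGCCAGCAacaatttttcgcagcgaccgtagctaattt
rpl-35: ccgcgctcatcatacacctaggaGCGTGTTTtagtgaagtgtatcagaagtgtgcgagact
usp-4: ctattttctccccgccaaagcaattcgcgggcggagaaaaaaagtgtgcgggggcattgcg
All coordinates are on ce11 and count from 1. The plus-strand sequences are lep-2 at chrIV:991452-991512, rpl-3 at chrIII:3867543-3867603, cpg-1 at chrIII:4489092-4489152, rpl-35 at chrIII:7854650-7854710 and usp-4 at chrIV:6756609-6756669. The minus-strand sequences are C33B4.4 at chrII:11376763-11376823, Y54B9A.1 at chrV:9439883-9439943, mog-4 at chrII:14561816-14561876, rpl-15 at chrIV:654889-654949 and hcp-3 at chrIII:9617069-9617129. The C33B4.4 summit lies in an intron of a longer transcript of that gene, and the other 9 lie between genes.

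Some members carry stretches of each other's sequence, and 5 more summits are shown to let these be read side by side. For cox-5A and klp-18 the strand opposite to the gene is written, so that the words they share with rpl-3 and sgo-1 read in 1 direction, and 50 bases to either side of the summit are given for klp-18 and sgo-1.
fust-1: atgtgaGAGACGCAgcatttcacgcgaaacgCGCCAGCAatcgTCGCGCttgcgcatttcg
E02C12.12: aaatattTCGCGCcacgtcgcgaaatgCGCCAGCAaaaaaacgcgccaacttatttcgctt
cox-5A: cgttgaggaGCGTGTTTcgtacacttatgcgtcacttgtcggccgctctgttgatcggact
klp-18: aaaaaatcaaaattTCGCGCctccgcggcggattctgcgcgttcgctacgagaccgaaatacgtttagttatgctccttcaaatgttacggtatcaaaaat
sgo-1: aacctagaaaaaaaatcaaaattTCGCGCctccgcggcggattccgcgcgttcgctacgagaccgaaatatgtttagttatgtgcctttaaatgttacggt
They lie at chrII:7152143-7152203 on the plus strand (fust-1), chrV:9382713-9382773 on the minus strand (E02C12.12), chrIII:12905180-12905240 on the minus strand (cox-5A), chrIV:7039864-7039964 on the minus strand (klp-18) and chrIV:7796850-7796950 on the minus strand (sgo-1). In windows reaching 50 bp to either side of the summit, klp-18 and sgo-1 shared an unbroken run of 35 bases, rpl-3 and cox-5A 21, cpg-1 and fust-1 20, and C33B4.4 and E02C12.12 17. The run in cox-5A lies mostly beyond the bases printed for it. The klp-18 gene encodes a kinesin of the meiotic spindle and sgo-1 a shugoshin, a class of proteins that guard chromosome cohesion.

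The members were peaks of middle rank in the list. Their deposited signal had a median of 88.6 with quartiles of 69.6 and 119.7, against medians of 76.3 for start peaks and 75.2 for non-promoter peaks. The strongest member ranked 42 in the whole list, and 2 members stood in its top 100. A signal of at least 200 was reached by 13 members and one of at least 100 by 41.4% of members, while 15 members were below 50. The signal is the authors' own value for a peak on an arbitrary scale and served only to rank and describe. In whole worms, occupancy in few cells and weak occupancy in many cannot be told apart.

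The strongest member lay 524 bp upstream of C33B4.4, an uncharacterized gene, with a joint signal of 545. Its replicate signals were 321.6 and 201.2 in the ranked lists of replicates 1 and 2. The next, 801 bp upstream of lep-2, a makorin-type ubiquitin ligase known for its part in the timing of the juvenile-to-adult transition, had a joint signal of 370.4 and replicate signals of 205 and 139. The next ones stood well below and close together. First of them was rpl-3, a large ribosomal subunit gene, with a joint signal of 264. Y54B9A.1, an uncharacterized gene, had a joint signal of 253 with 110.2 in replicate 1 and 127 in replicate 2. The peak 221 bp upstream of a start of gpa-1, a G protein alpha subunit, had 253 with 138 in replicate 1 and 102 in replicate 2. The peak 247 bp upstream of mog-4, an RNA helicase of pre-mRNA splicing that acts in the sperm-to-oocyte switch, had 251 with 154 and 99.6. In 18 of the 24 strongest members replicate 1 had the higher of the replicate signals, and the same held for 175 of the 242 members with both. The share over other peaks is not given here, so this cannot be read as particular to the members.

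**Figure D1:**
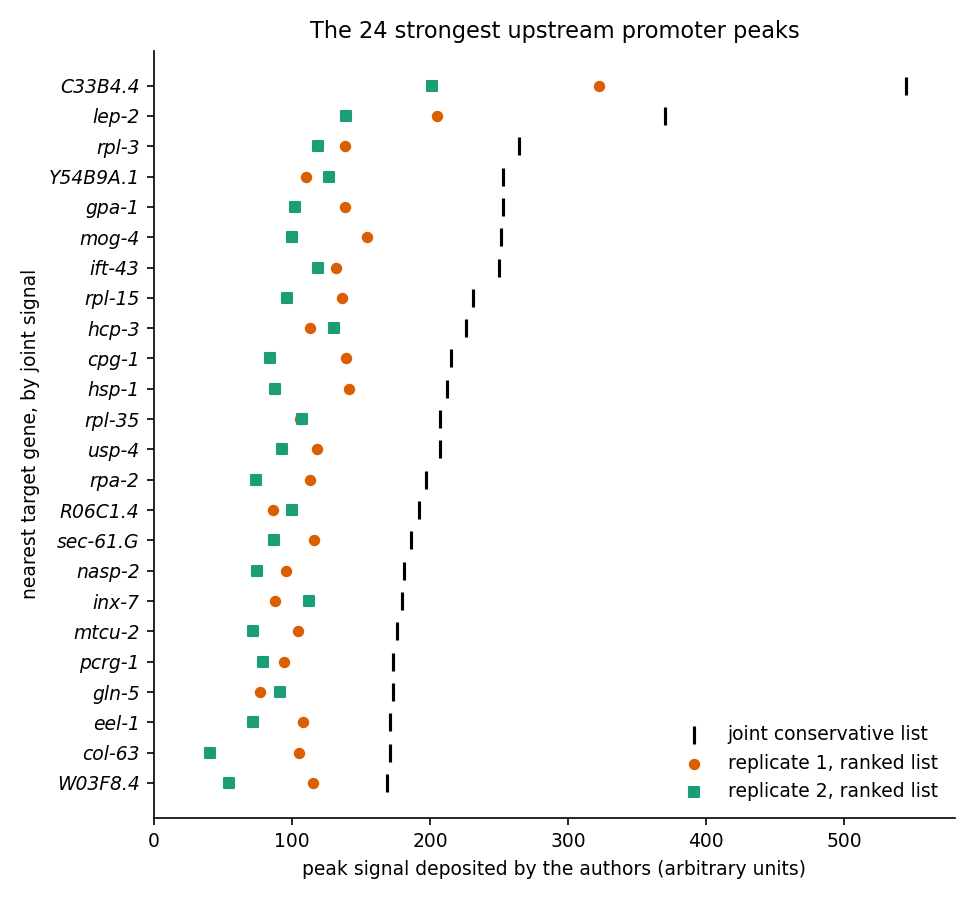
Deposited signal (x axis, arbitrary units) of the 24 strongest upstream promoter peaks (rows, named by the nearest target gene), with the joint value as a bar and each replicate's ranked-list value as a point. C33B4.4 at 545 and lep-2 at 370.4 stand apart, and the joint value exceeds both replicate values in every row.

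The strongest 24 held genes of very different work. Ribosomal protein genes were rpl-3, rpl-15 with a joint signal of 231 and rpl-35 with 207. The centromeric histone H3 gene hcp-3 had 226, with 113 in replicate 1 and 130.1 in replicate 2. The eggshell proteoglycan gene cpg-1 had 215, with 139 in replicate 1 and 83.9 in replicate 2. All these were found in both replicates. The constitutive Hsp70 gene hsp-1 had 212, the ubiquitin hydrolase usp-4 207, the single-strand DNA binding subunit rpa-2 197 and the RNA-binding gene R06C1.4 192. Lower down came the secretory translocon subunit sec-61.G with 186, the histone chaperone homologue nasp-2 with 181 and the gap junction gene inx-7 with 179.7. They were followed by mtcu-2 with 176, pcrg-1 with 173, the glutamine synthetase gln-5 with 173, the ubiquitin ligase eel-1 with 171, the collagen gene col-63 with 171 and W03F8.4 with 169. Of the 24, 15 lay between genes that point away from each other. The summit assigned to ift-43, an intraflagellar transport gene, had 249.8 but lies in an exon of mdt-26, whose own start is nearer, at 584 bp.

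The replicates gave these places unequal support. All 244 members overlapped a region in the ranked list of replicate 1 and 242 one in that of replicate 2, which are long lists before the threshold. In the replicates' own thresholded lists, 138 members (56.6%, 95% Wilson interval 50.3 to 62.6) were present in replicate 1 and 123 (50.4%, 44.2 to 56.6) in replicate 2. In both lists stood 97 (39.8%, 33.8 to 46.0), and 80 stood in neither. Support followed signal closely, with 49 of the 50 strongest members in both lists but 2 of the 50 weakest. Across the 242 members with a signal in each replicate, Spearman's rho was 0.66, which is a description across regions that share their libraries. Some neighbouring members overlap the same replicate regions and enter with the same signals, as both at K12H4.5 do with 73.4 and 59.4. Every member also comes from a joint list thresholded on reproducibility, so rho describes peaks already selected for agreement. The intervals cover the counting of regions only.

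Members were in both replicates' lists more often than non-promoter peaks, but the joint signal moved with this. The share was 39.8% of members against 28.8% of 444 non-promoter peaks (24.8 to 33.2), and a two-sided Fisher's exact test, Benjamini-Hochberg adjusted over 16 tests, gave p = 0.0311. Against 32.6% of 258 start peaks (27.1 to 38.5) the adjusted p was 0.218. For the replicate 1 list the shares were 56.6% of members against 43.9% of non-promoter peaks (Fisher's exact test, adjusted p = 0.0296) and 45.7% of start peaks (adjusted p = 0.0644). For the replicate 2 list they were 50.4% of members against 39.4% of non-promoter peaks (Fisher's exact test, adjusted p = 0.0332) and 47.3% of start peaks (adjusted p = 0.633). Among peaks with a joint signal of 100 or more, a split chosen after seeing the data, 78.2% of members were in both lists, against 86.5% of 74 start peaks and 87.6% of 105 non-promoter peaks. Among those from 50 to below 100, 13.3% of 128 members were in both, against 9.09% of 165 start peaks and 9.31% of 290 non-promoter peaks. Neither band gave an adjusted p below 0.05 (0.804 and 0.485 against non-promoter peaks), so the call over all peaks did not hold within either band. By the same exact test it also did not hold when only peaks at an irreproducible discovery rate (IDR) of 0.001 or less were kept (adjusted p = 0.971), or without the exclusion of peaks near short RNA genes (adjusted p = 0.108). These tests treat regions as independent and do not measure the spread between worms.

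**Figure D2:**
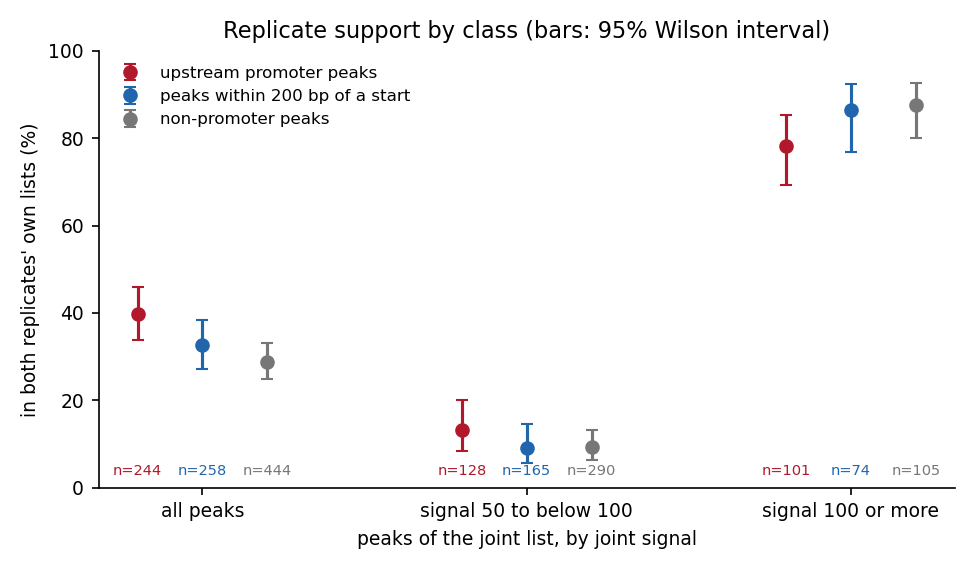
Share of peaks found in both replicates' own lists (y axis, percent) for upstream promoter, start and non-promoter peaks, over all peaks and in 2 bands of joint signal. Points are shares, bars 95% Wilson intervals and n the peaks; over all peaks members stand at 39.8% against 28.8% of non-promoter peaks, and at a signal of 100 or more at 78.2% against 87.6%.

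The strongest members without full support were not weak in the joint list. The peak 333 bp upstream of rps-24, a small ribosomal subunit gene, had a joint signal of 144, with 79.4 in replicate 1 and 55.7 in replicate 2, and was missing from the replicate 2 list. C17C3.2, at 789 bp, had 130.0, with 75.0 in replicate 1 and 44.0 in replicate 2, whose list also lacked it. Missing from the replicate 1 list were the other gpa-1 peak, at 429 bp, with 35.9 in replicate 1 and 48.2 in replicate 2, his-61 with 69.9 and 48.0, and puf-11, a Pumilio-family RNA-binding gene of the germline, with 56.4 and 62.0. For his-61 the signal of replicate 1 was the higher although that replicate's list lacked it.

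Some members had close neighbours. Another summit of the list lay within 1000 bp of 50 members, and for 20 of them it was itself a member. The pair at gpa-1 lay 208 bp apart with joint signals of 253 and 130.0. The pair at K12H4.5 lay 203 bp apart with 131 and 12.2, and the histone summits assigned to his-59 and his-61 lay 872 bp apart with 128 and 123. All 8 members with a signal below 20, which had 3.17 to 13.6, stood 199 to 237 bp from a stronger summit. The replicate regions they overlapped had their own summits 155 bp or more away, so those replicate signals were measured nearer the neighbour. Of these 8, at uvs-1, mak-1, vha-13 and the like, 1 was in both replicates' lists.

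The members crowded towards the start side of their window. Their distance to the nearest target start had a median of 388 bp with quartiles of 269 and 605, against a median of 582 bp over all 13.2 Mb of positions that meet the rule. Per Mb of eligible positions there were 42.4 members in the innermost 100 bp, beyond 200 bp from the start, and 28.8 in the next 100 bp. Further out the density was 15.4, 17.5, 14.2, 10.1, 7.05 and 7.84 per Mb in successive steps of 100 bp. The innermost 200 bp of the window held 127 of the 244 members but 26.9% of eligible positions. Start peaks had 42.9 per Mb in the 100 bp just inside the limit of 200 bp and 39.9 in the last 100 bp before the start, so the density at the inner edge of the window was about that of the promoter next to it. Downstream of the start it was 29.8 per Mb in the first 100 bp and 12.7 in the next. Over the whole window members had 18.5 summits per Mb, against 31.2 for start peaks and 7.83 for non-promoter peaks.

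**Figure D3:**
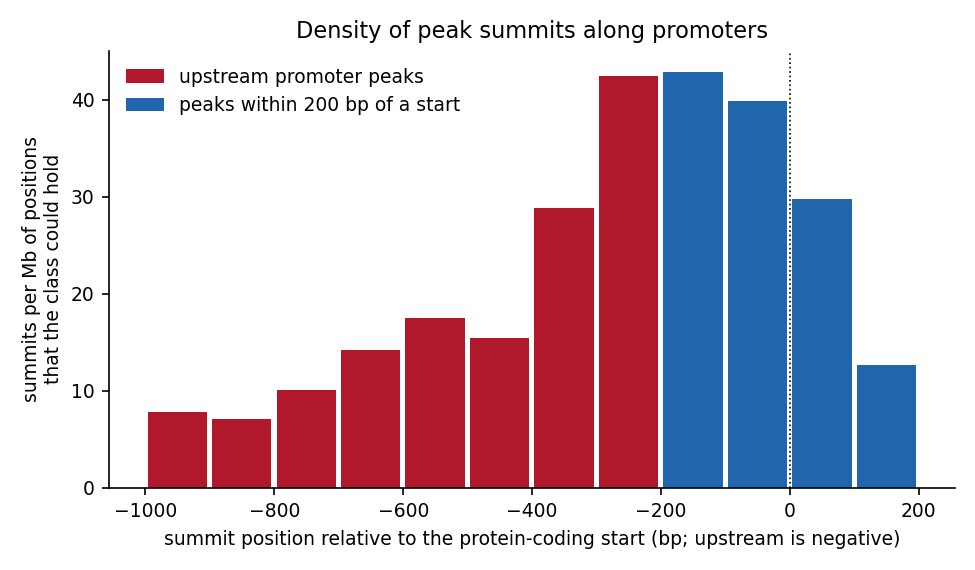
Summits per Mb of positions that a class could hold (y axis) against position relative to the protein-coding start (x axis, bp, upstream negative), in steps of 100 bp, for upstream promoter peaks and start peaks. The density of members is 42.4 per Mb in the step next to the 200 bp limit and 7.84 in the outermost step.

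The inner limit of the window marked no step in density, with 42.9 start peaks per Mb on its start side and 42.4 members per Mb beyond it. In the outermost 100 bp the 7.84 members per Mb were about the 7.83 of non-promoter peaks. Density in steps beyond 1000 bp is not given here, so the outer limit cannot be judged in the same way. Just inside the inner limit lay the peaks at gyg-2, with a signal of 118, and rpn-3, at 202 bp with 77.3. Just outside it, at 198 bp, lay those at ztf-8 with 75.9 and C14B1.8 with 69.7. At the outer limit ift-43, at 979 bp, had 249.8 and unc-23, at 978 bp, had 57.1, while kin-35 at 1019 bp had 51.6 and lea-1 at 1020 bp had 28.1.

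Regions between divergent genes held more members per eligible Mb than tandem regions, introns or exons, with a higher median signal. Between divergent genes lay 86 members (35.2%), against 22.0% of eligible positions, or 29.6 per eligible Mb. Between genes in tandem lay 85 members, or 21.5 per Mb, in introns 35, or 10.8 per Mb, and in exons 34, or 11.1 per Mb. The 4 members between convergent genes lay at 40367 eligible bp, too few to describe further. The median signal was 106 between divergent genes, 85.5 between tandem genes, 77.5 in introns and 75.8 in exons. Of the divergent members 43 of 86 were in both replicates' lists, against 32.9% of tandem, 37.1% of intron and 29.4% of exon members.

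A single summit could serve more than 1 gene by the rule. Targets numbered 1 for 186 members and 2 or more for 58. The peak at klp-18, with a joint signal of 166 and replicate signals of 83.6 and 83.5, lay 297 bp from klp-18 and 334 bp from cogc-2, a Golgi complex gene. The peak of signal 137 between rec-8, a meiotic cohesin, and mex-5, a polarity protein of the early embryo, lay 256 and 274 bp from their starts, with 69.8 in replicate 1 and 82.3 in replicate 2. The peak of signal 146 between trap-3 and sec-61.B, both genes of the secretory translocon, lay 277 and 493 bp away. Other shared places were dpm-3 with rps-23, nra-2 with lin-53, crld-1 with msh-5, rpn-3 with hsp-110, and C47E8.4 with hsp-90. The data do not say which gene of a pair, if any, responds. For 28 members some other protein-coding start was nearer than the target's own. Inside a protein-coding gene lay 69 members, 27 of them within a longer transcript of their own target. No member region covered a protein-coding start.

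Chromosome IV outside the excluded stretch was the densest. It held 66 members, or 28.4 per eligible Mb, against 20.2 on III, 17.9 on II, 16.6 on I and 13.2 on V. On IV before the stretch there were 63 members, or 27.7 per Mb. Beyond it 3 members, at hsp-1, gln-5 and rif-1.1, fell in the 49877 eligible bp that remain to the chromosome end. The median signals per chromosome ran from 80.4 on III to 96.6 on V. An annotated piRNA start lay within 500 bp of 8 members, an ncRNA start within 500 bp of 28, and a miRNA start within 500 bp of none. The share of eligible positions near such starts is not given here, so these counts have no background.

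The DNA under the summits was poorer in A+T than the DNA around it. In windows reaching 50 bp to either side the median was 54.5% (quartiles 48.5 and 60.4), against 62.4% in the flanks centred 500 bp away. The median difference of summit minus flanks was −7.18 percentage points, and 171 of 244 members were below their flanks. Over all eligible windows the median was 66.3%, and 9.71% of windows were below the members' median. Start peaks had 55.4% and non-promoter peaks 58.4%. The drop was narrow, since the mean of 51-bp windows was back above 63% at 100 bp from the summit. In the 4 larger settings the members' median was below that of eligible windows of the same setting, with 51.5% at divergent members against 67.3% in divergent eligible windows, 55.4% against 67.3% in tandem, 54.5% against 67.3% in introns and 55.9% against 61.4% in exons. The 4 members between convergent genes were set only beside their own flanks, and each was richer in A+T than these. The values were 69.3% against 60.4% at cdt-2, 72.3% against 54.5% at his-48, 60.4% against 57.9% at his-64 and 58.4% against 51.5% at his-66. Among the strongest 24, 19 were below their flanks, as at usp-4 with 46.5% against 73.3% and C33B4.4 with 51.5% against 72.8%. The hsp-1 summit was an exception at 73.3% against 62.9%.

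**Figure D4:**
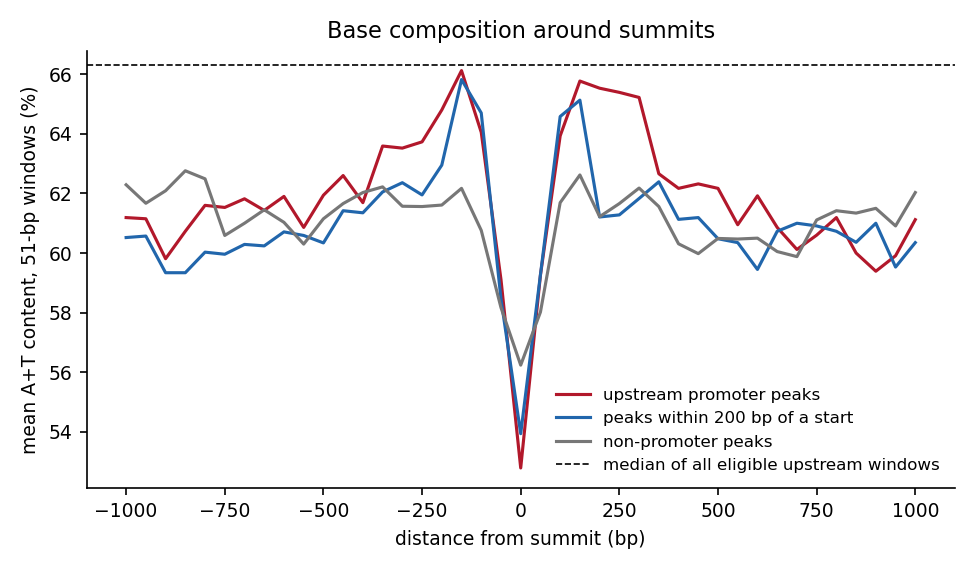
Mean A+T content of 51-bp windows (y axis, percent) against distance from the summit (x axis, bp) for upstream promoter, start and non-promoter peaks, with the median of all eligible upstream windows, 66.3%, as a dashed line. All 3 curves dip at the summit, and those of upstream and start peaks dip lowest.

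The 10 motifs of the first list were searched on both strands within 50 bp of each summit, and GCGCGC stood out from the surrounding DNA. It was present in 10.7% of members (7.38 to 15.2), against 1.23% of flanks and 0.828% of all eligible windows, or 2.49% once eligible windows were weighted to the members' A+T content. Without windows in which more than 50% of the 24-base words occur again in the genome, the share of members was 9.13%. Some holders are linked by shared words of 16 bases, namely unc-85, Y48G10A.2, F44E7.4, mec-6 and T02E1.2, and separately rpa-2 and rga-3. GCGCGC lay within 25 bp of the summit in 20 of the 26 members that hold it, among them hcp-3, rpa-2, pcrg-1 and rif-1.1. Start peaks held it in 9.69% and non-promoter peaks in 5.41%. Of the 10 motifs none differed between members and start peaks (Fisher's exact test, adjusted p from 0.176 to 0.769, and none below an unadjusted 0.05). Runs of 6 T or A (TTTTTT) were in 29.5% of members against 22.1% of start peaks and 43.6% of eligible windows, and TATAAA in 6.15%, against 4.65% and 11.99%. AAATTT was in 21.7% of members, 15.1% of start peaks and 27.8% of eligible windows. Weighting the eligible windows to the members' A+T content turned the direction for all 3, since the weighted shares were 22.3% for TTTTTT, 5.20% for TATAAA and 13.4% for AAATTT, each below that of the members. It also did so for AATATT, in 8.20% of members against 12.6% of eligible windows and 5.64% weighted. GAGAGA was in 12.7% of members, against 5.50% of eligible windows and 8.68% weighted. TGATAA was in 4.92%, against 9.80% and 5.80%, and CACGTG in 1.64%, against 1.68% and 3.01%. GTTCGA was in 4.92%, against 3.61% and 4.20%, and CTGTTTCA in 0.410%, against 0.665% and 0.441%. A match is a string of letters and not a shown site of binding.

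The further words seen in the printed sequences were counted in the same way, as a description only, since they were picked from these summits. They were read from bases next to strong summits. The signal, place and replicate support of their holders are therefore in part set by that choice. GCGCGA was in 14.8% of members, against 10.9% of start peaks, 3.60% of non-promoter peaks and 1.24% of eligible windows (3.07% weighted to the members' A+T content). Its longer form GCGCGAAA was in 16 members (6.56%), against 5.43% of start peaks and 0.354% of eligible windows (0.768% weighted). Those 16 include hcp-3, nasp-2, klp-18, rif-1.1, sgo-1, rpb-12 and egg-4. CGCCAGCA was in 10 members (4.10%, against 3.88% of start peaks and 0.113% of eligible windows, or 0.305% weighted), namely C33B4.4, cpg-1, fust-1, pcn-1, F26F2.7, E02C12.12, dnj-9, cul-4, gpd-1 and ztf-7. It lay within 25 bp of the summit in 9 of them, and 8 of them were in both replicates' lists. GTACGGTA was in 11 members (4.51%, against 3.88% of start peaks and 0.338% of eligible windows, or 0.468% weighted), with Y54B9A.1, kin-35, rec-8 and hcp-4 among them. GAGACGCA was in 13 members (5.33%, against 4.26% and 0.662%, or 1.84% weighted). GCGTGTTT was in 6 members (2.46%, against 3.10% of start peaks and 0.237% of eligible windows, or 0.30% weighted). These were C33B4.4, rpl-3, rpl-15, rpl-35, cox-5A and nrsn-1. Their median signal of 219 is no trait of the word, since it was picked from strong summits such as rpl-3, rpl-15 and rpl-35. CTACTGTA was in 3 members (1.23%, against 1.16% and 0.579%, or 0.491% weighted).

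Repeated DNA touched a minority of members. In 25 members (10.2%, 7.04 to 14.7) more than 50% of the 24-base words of the window occur again in the genome, against 3.49% of start peaks, 18.2% of non-promoter peaks and 8.26% of eligible windows. The median signal of these 25 was 106, against 88.6 for all members. Among the strongest 24 they include Y54B9A.1 (93.6% of words), rpa-2 (91.0%) and mog-4 (65.4%), and the bases of Y54B9A.1 and mog-4 are printed above. No repeated word was found in 177 members (72.5%). A word of 16 bases links 40 members into 13 families, the largest with 7 members at mtcu-2, vps-39, unc-85, Y48G10A.2, F44E7.4, mec-6 and T02E1.2. The next has 6, at eel-1, rps-24, Y62F5A.12, atad-3, W09B6.4 and npp-6. Not all of these are repeats in the wider genome, since the windows at cpg-1, fust-1 and eif-3.C share words with each other and hold no repeated 24-base word. The sources used here do not say how reads from copies were assigned, and their part in the repeated windows was not tested.

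Through these summits 294 protein-coding genes had a member upstream, which is 1.76% of the 16720 that could have had one. In the replicates' own lists the counts were 197 genes (1.18%) in replicate 1 and 166 genes (0.993%) in replicate 2. A start peak as well as a member was present at 21 of the 294 genes. The share of all eligible genes with a start peak is not given beside this count. Among the 21 genes hsp-1 had signals of 212 upstream and 54.2 at the start, rpl-27 60.7 and 134, and his-68 66.5 and 122. The 28 gene lists that follow were written with earlier results of these peaks known, so their shares are descriptions beside the 1.76% of all genes. A list takes genes by their symbol alone. Members whose RefSeq product names the same family under another symbol are not counted in it. Some of these are given beside the count, and others may be missed.

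Of 74 eligible cytosolic ribosomal protein genes 12 (16.2%) had a member, 8 in the replicate 1 list and 6 in the replicate 2 list. For rpl-3 the joint signal was 264 with 138 in replicate 1 and 119 in replicate 2, and for rpl-15 it was 231 with 136 and 95.9. For rpl-35 the values were 207, 106 and 107. The remaining members ran from rps-23 at 152 to rpl-43 at 3.17, and the summit at rpl-43 lay next to a stronger one. None of the 69 genes with an mrpl or mrps symbol had one, but T09F3.4, whose product is a mitochondrial ribosomal protein, had a signal of 90.5 and was in both replicates' lists. Translation factors had 2 of 37 (eif-3.C with 106 and eif-2D with 73.0), the secretory translocon and coat list 4 of 34 through 3 summits (sec-61.G with 186, sec-61.B with 146) and the respiratory chain 2 of 38 (cox-5A with 122 and sdhd-1 with 64.6). Outside that last list, F36A2.7, a cytochrome c oxidase subunit by its product, had 66.9, and nduf-2.2, of complex I, shared the dlc-1 summit of 65.9. The coat GTPase sar-1, outside the translocon and coat list, had 90.4. Chaperones had 6 of 62 (9.68%), or 3 when a summit was given to its nearest start only. Of the 6 summits, 5 were in the replicate 1 list and 3 in the replicate 2 list. They were led by hsp-1 with 212, of which replicate 1 had 141 and replicate 2 had 87.7, and dnj-13 with 139.6. The proteasome had 1 of 33, rpn-3, and ecps-1, outside the list, a proteasome component by its product, had 117. Splicing had 2 of 57, mog-4 with 251 and lsm-8 with 101.3, beside plrg-1, outside the list, with 97.6.

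The centromere, kinetochore and centriole list had 6 of 32 (18.8%), 4 of them in the replicate 1 list and 5 in the replicate 2 list. It had 4 when a summit was given to its nearest start only, since knl-3 and spd-5 were second targets, after T10B5.3 and npp-6. After hcp-3 came hcp-4, the CENP-C protein of the inner kinetochore, with 146 and replicate signals of 79.2 and 68.2. Then came knl-3 with 144, hcp-1 with 121, the centrosome scaffold spd-5 with 78.1 and rod-1 with 62.7. The list lacks czw-1, the kinetochore protein ZW10, which had 109.8 and was in both replicates' lists. Kinesins and dynein had 3 of 26, klp-18 with 166 and klp-7 with 77.2 ahead of dnc-1, and the dynein light chain dlc-1, outside the list, had 65.9. Meiotic chromosome genes had 6 of 53, led by sgo-1 with 148 and rec-8 with 137. DNA replication genes had 5 of 50, rpa-2 with 197 and mcm-2, a helicase subunit, with 141 leading. The last of the 5, cdc-37 with 62.1, entered by its symbol and is an Hsp90 co-chaperone by its product. The germline and oocyte list had 7 of 62 (11.3%), with cpg-1 at 215 and mex-5 at 137 ahead of puf-11, cpg-2, pos-1, egg-4 and pgl-3. Outside it F18A1.7, with a chondroitin proteoglycan 4 domain by its product, had 87.3. Small RNA pathway genes had 3 of 78 (nrde-2 with 91.4 and eri-5 with 84.6), and the DREAM and SynMuv list had 1 of 56, lin-53 with 106.

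Histone genes need to be read apart. Of 68 eligible 10 (14.7%) had a member, 9 of them on chromosome IV and led by his-65 with 149, or 78.3 and 71.3 in the replicates, and his-56 with 136. The his-65 summit, at 752 bp, lay nearer to the start of his-66, at 446 bp. For the other, his-56 was the second target at 826 bp, after F54E12.2 at 512 bp. These genes sit close together in clusters of near-identical copies, so reads and targets are uncertain. Of the 10 summits, 4 lay inside another histone gene, such as his-60 for his-59 and his-62 for his-61.

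Several large gene families held few members or none. No member lay upstream of any of 243 nuclear hormone receptor genes with an nhr symbol, 63 listed homeobox genes, 89 genes of the MSP and sperm list, or 290 lectin, lysozyme and immunity genes, nor of any eligible neuropeptide or insulin gene. Chemoreceptors had 1 of 1285, srh-76 with a signal of 57.3, and listed F-box and BTB genes 1 of 390, fbxa-111 with 116.2. Listed cuticle collagens had 1 of 145, col-63, whose joint signal of 171 stood beside 105 in replicate 1 and 40.8 in replicate 2. The replicate 1 list alone held 1 lectin, lysozyme or immunity gene, 2 F-box or BTB genes and 1 collagen. The replicate 2 list held 0, 1 and 2 of these. By their RefSeq products 4 further members belong to these families. They are C17C3.2, with a nuclear receptor ligand-binding domain and a signal of 130.0, the F-box gene Y32B12B.2 with 83.0, the BTB gene H31G24.3 with 104.4 and T22D1.17, with a cuticle collagen domain and 93.2. Detoxification genes were at the share of all genes, with 3 of 170 or 1.76%, among them ugt-12 at 72.2 and cyp-33C4 at 63.7. Innexins had 1 of 19 (5.26%), inx-7. None of the 4 eligible attf genes and not the 1 eligible gene of the vitellogenin list had a member.

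**Figure D5:**
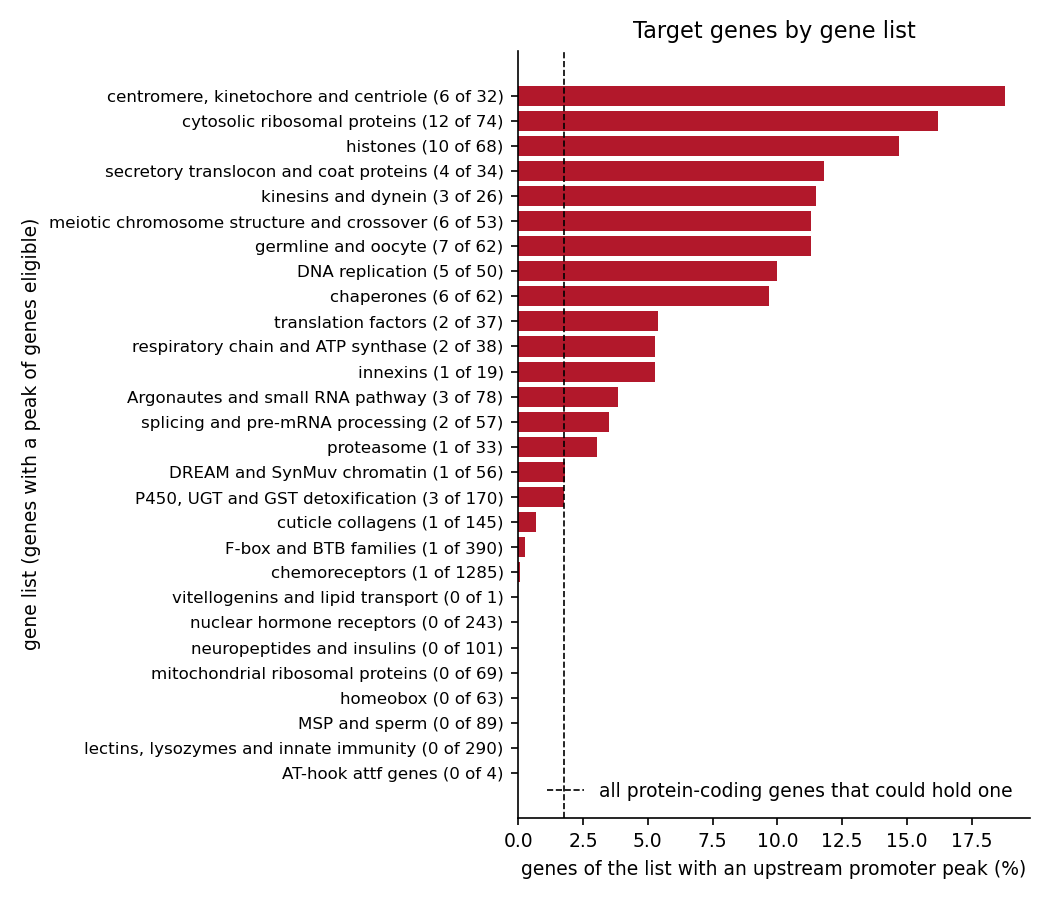
Share of eligible genes with an upstream promoter peak (x axis, percent) for each of the 28 gene lists, taken by gene symbol (rows, with the genes counted), beside the 1.76% of all eligible genes as a dashed line. Centromere and kinetochore genes stand at 18.8%, cytosolic ribosomal protein genes at 16.2% and histones at 14.7%, while lists such as nuclear hormone receptors are at 0. With the nearest start only, the first of these had 4 genes in place of 6, the second 9 in place of 12 and histones 9 in place of 10.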

How the data were processed

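Peak lists of 2 biological replicates were analysed as deposited, on ce11 per the deposited notes. The sources used here give no aligner, peak caller or read depth. The signal of a peak is the value the authors deposited for it. The global irreproducible discovery rate (IDR) is deposited on a −log10 scale by the authors, and every peak of the joint conservative list was at 0.01 or less. Summits were counted from 1 and classified against Ensembl release 115 protein-coding transcripts of WBcel235, the same assembly, and sequence came from its RefSeq copy. The position rule was checked at 20000 random positions against a separate enumeration, with 0 disagreements. A peak was in a replicate's list if it overlapped a region there by at least 1 bp. Shares have Wilson intervals, and 16 Fisher's exact tests were adjusted by Benjamini-Hochberg (Python 3.11.15, SciPy 1.17.1, NumPy 2.4.6). Gene lists were taken by symbol and counted again with the nearest start only and at an IDR of 0.001. Named genes are those of the 24 strongest members, the 2 strongest of each gene list, the 5 strongest members that either replicate's list lacks, the 5 strongest with a neighbouring member, and those at the limits of the window. Other names were chosen after their values were seen. The members, lists and motifs were chosen with earlier results of these data known. No p-value across samples is given, since 2 replicates of 1 group allow none.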

Additional observations from a re-analysis of the deposited data

How the results depend on the processing

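No paired analysis was possible because both replicates belong to 1 group. The number of members, 244, was 140 to 161 in the lists of 1 replicate alone and 124 at an IDR of 0.001. It was 391 with a window out to 2000 bp and 159 with an inner limit of 300 bp; the other settings gave 208 to 317. Genes with a member numbered 294, 157 at an IDR of 0.001, and 166 to 197 in 1 replicate alone. The shares in replicate lists changed most with signal. Differences of members minus start peaks turned round at an IDR of 0.001 for both lists (−1.997 percentage points) and for replicate 2 (−5.65), at a signal of 100 or more (both −8.27, replicate 1 −2.15, replicate 2 −6.11) and at 50 to below 100 for replicate 2 (−1.49). For replicate 1 against start peaks the adjusted p passed 0.05 with summits within 100 bp (12.3 points), with no short RNA exclusion (13.4), at a signal of 50 or more (12.9) and without repeated windows (12.04). Against non-promoter peaks the differences turned round at a signal of 100 or more (both −9.40, replicate 1 −3.20, replicate 2 −5.25). They lost the call at an IDR of 0.001 (4.02, 4.86, 3.17), without the short RNA exclusion (7.05, 8.38, 7.72) and at 50 to below 100 (3.97, 6.44, 4.402), in the order both, replicate 1, replicate 2. The cause was not tested; fewer regions enter the IDR and signal settings. Settings by signal or repeated sequence were chosen after seeing the data. The median A+T difference of −7.18 points was −9.80 in 51-bp windows, −3.23 in windows reaching 100 bp to either side, −7.67 at an IDR of 0.001 and −6.93 to −7.43 in 1 replicate alone. With the nearest start only, chaperones had 3 genes in place of 6, translocon and coat genes 2 in place of 4, and the DREAM and SynMuv list 0 in place of 1. The lists with the highest shares also fell. Centromere and kinetochore genes had 4 in place of 6, cytosolic ribosomal protein genes 9 in place of 12 and histones 9 in place of 10. The meiotic list had 4 in place of 6. At an IDR of 0.001 cytosolic ribosomal protein genes had 6 in place of 12, the meiotic list 3 in place of 6 and DNA replication 3 in place of 5. At the same IDR centromere and kinetochore genes had 4 in place of 6 and histones 7 in place of 10. None of the 10 motifs passed the test against start peaks in any setting run. Read depth is unknown and limits every count.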
